A study of Mus musculus with 36 samples.

Results

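Collagens are the main structural proteins of the extracellular matrix, and the mouse genes that encode their chains carry symbols made of Col, a type number, the letter a and a chain number. Of the 54347 genes in the expression table of primary mouse cells described here, 45 protein-coding genes fit that pattern. One of them, Col4a3bp, encodes a ceramide transfer protein and not a collagen chain, so it was kept out of all collagen counts. The remaining 44 genes were placed in classes by the structure their proteins build. The classes were 11 fibrillar collagens, 8 basement membrane collagens and 25 other collagens. Of the 44, 35 passed the filter on low counts and could be tested. These were all 11 fibrillar genes, 5 of 8 basement membrane genes and 19 of 25 other genes.

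RNA was sequenced from primary cultures of C57Bl/6 male mice that received either PBS as control, βOHB ((R)-(–)-3-hydroxybutyric acid sodium salt) at 5 mM or butyrate (butyric acid sodium salt) at 5 mM, each for 6 h. Cultures of adipocytes, macrophages, myocytes (labelled skeletal myotubes) and hepatocytes gave 12 groups of 3 libraries, 36 in all. βOHB, a ketone body, is butyrate with a hydroxyl group on the beta carbon, and the design sets each of the pair against control and against the other. The labels name the substance of the third group butyric acid but also carry the abbreviation bOHB beside it in a source field, and the treatment field was followed. The stromal vascular fraction of inguinal fat from several pooled mice, which also holds fibroblasts and vascular cells, was differentiated to obtain the adipocytes. The macrophages were grown from bone marrow in medium conditioned by L929 cells, a mouse fibroblast line. The myocytes came from hindlimb myoblasts that were pre-plated to remove fibroblasts and grown on Matrigel, a basement membrane extract. The hepatocytes were isolated by collagenase perfusion from C57BL/6NHsd mice and plated on collagen-coated wells. Nothing in the labels says that the 3 libraries of a group came from separate mice or cultures, so p-values measure the spread between these libraries, which may be technical.

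Total counts ranged from 18366289 to 23221473 per library, so a gene at 1 CPM (a count scaled to the same TMM-adjusted library total in every library) rested on about 20 reads. Each culture expressed its own markers in all control libraries, with summed levels of 17175 to 18810 CPM for 8 adipocyte genes, 17825 to 18009 CPM for 8 macrophage genes, 23979 to 29923 CPM for 8 myotube genes and 44281 to 46134 CPM for 8 hepatocyte genes. Markers of other cells were present too. The summed level of 10 fibroblast markers was 2709 to 2932 CPM in control adipocytes, 686 to 829 CPM in myocytes, 378 to 399.6 CPM in macrophages and 6.68 to 7.96 CPM in hepatocytes. Mfap4 was at 0 in the control macrophages, and Dpt and Mfap4 were at 0 in the control hepatocytes. In bulk samples, fewer cells of a type and less RNA per cell cannot be told apart. Among the butyrate-treated myocytes, replicate 3 held 1566 CPM of fibroblast markers against 775 and 727.6 CPM in the others. All 8 hepatocyte markers were above 1 CPM in butyrate-treated myocytes, with sums of 36.8, 666.9 and 154.8 CPM in replicates 1, 2 and 3, against at most 0.176 CPM in the control myocytes. Of the βOHB-treated myocytes, replicate 3 held 27.72 CPM of them and the others 0.1836 and 0.0444 CPM. Counts under butyrate in myocytes are also given without butyrate replicate 2 or 3, the counts by class and list as a choice made after the data were seen.

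Every collagen chain contains repeats of glycine followed by a pair of other residues, and such chains wind around each other into a triple helix inside the endoplasmic reticulum. Fibrillar collagens, such as type I from Col1a1 and Col1a2 and type III from Col3a1, are then trimmed and cross-linked into the fibrils that give tissue its tensile strength. Type IV collagen, mainly from Col4a1 and Col4a2, forms the sheet of basement membranes, while types XV and XVIII sit at the edge of that sheet. The other collagens decorate fibrils, build beaded filaments or short networks, or span the plasma membrane. In fat and muscle most collagen is made by fibroblast-like cells, and in liver by stellate cells.

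Promoters of the collagens were read from RefSeq on build GRCm38.p6. Of the 44 collagens, 35 had an entry, with 38 start sites between them. The motif GGGCGG, searched with TATAAA and CCAAT on both strands from 250 bases before to 50 bases after each start, was in 23 of the 38 windows (60.5%) and in 35.7% of 32851 promoters of all genes. CCAAT was in 34.2% of the collagen windows and 37.4% of all promoters, and TATAAA in 13.2% and 13.6%. The 150 bases before the start are shown for the members with the largest changes under butyrate whose windows hold no annotated exon of a protein-coding gene, and for Col3a1 as a fibrillar collagen of high level. Capitals mark a motif. The windows are chr4:126286644-126286793 on the plus strand for Col8a2, chr16:57754738-57754887 on the minus strand for its partner chain Col8a1, chr2:180986385-180986534 on the plus strand for Col20a1, chr10:61979109-61979258 on the minus strand for Col13a1 and chr1:45311388-45311537 on the plus strand for Col3a1.
Col8a2: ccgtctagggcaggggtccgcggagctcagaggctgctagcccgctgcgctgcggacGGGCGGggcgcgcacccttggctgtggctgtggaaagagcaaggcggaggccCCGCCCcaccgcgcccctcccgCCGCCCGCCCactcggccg
Col8a1: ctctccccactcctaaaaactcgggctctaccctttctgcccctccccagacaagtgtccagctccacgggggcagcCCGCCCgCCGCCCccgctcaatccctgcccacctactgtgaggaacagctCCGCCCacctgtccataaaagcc
Col20a1: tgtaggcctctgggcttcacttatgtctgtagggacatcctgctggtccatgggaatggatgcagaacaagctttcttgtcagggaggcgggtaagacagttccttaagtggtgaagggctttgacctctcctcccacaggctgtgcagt
Col13a1: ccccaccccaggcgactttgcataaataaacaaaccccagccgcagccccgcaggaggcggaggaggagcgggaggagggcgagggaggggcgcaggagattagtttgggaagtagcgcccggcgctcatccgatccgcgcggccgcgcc
Col3a1: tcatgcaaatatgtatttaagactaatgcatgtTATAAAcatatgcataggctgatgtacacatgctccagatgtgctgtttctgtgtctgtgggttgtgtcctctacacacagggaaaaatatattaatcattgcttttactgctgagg
The windows of Col8a2 and Col8a1, whose transcripts moved in opposite directions under butyrate in adipocytes, macrophages and myocytes, both carried several copies of GGGCGG. No letter of the searched motifs was found in the windows of Col20a1, which rose, and Col13a1, which fell. The window of Col20a1 also overlaps an exon of a noncoding transcript.

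Under control conditions collagen transcripts made up 2% of the TMM-adjusted library total in adipocytes (19984 ± 714 CPM, mean ± SD, n = 3). The share was 0.465% in macrophages (4655 ± 224 CPM), 0.418% in myocytes (4181 ± 323 CPM) and 0.0734% in hepatocytes (734 ± 77.1 CPM). In hepatocytes the adjusted total lay below the raw total of counts, so the share of raw counts was lower there. The class that led differed as well. Fibrillar collagens summed to 10636 CPM in adipocytes, 3359 CPM in macrophages and 2543 CPM in myocytes, more than the basement membrane collagens with 5535, 461 and 1088 CPM in the same order. In hepatocytes the order was turned, with 655 CPM for basement membrane collagens and 28.2 CPM for fibrillar collagens. Of the 44 collagens, 25 reached a mean of 1 CPM in control adipocytes, 13 in hepatocytes, 23 in macrophages and 31 in myocytes.

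**Figure D1:**
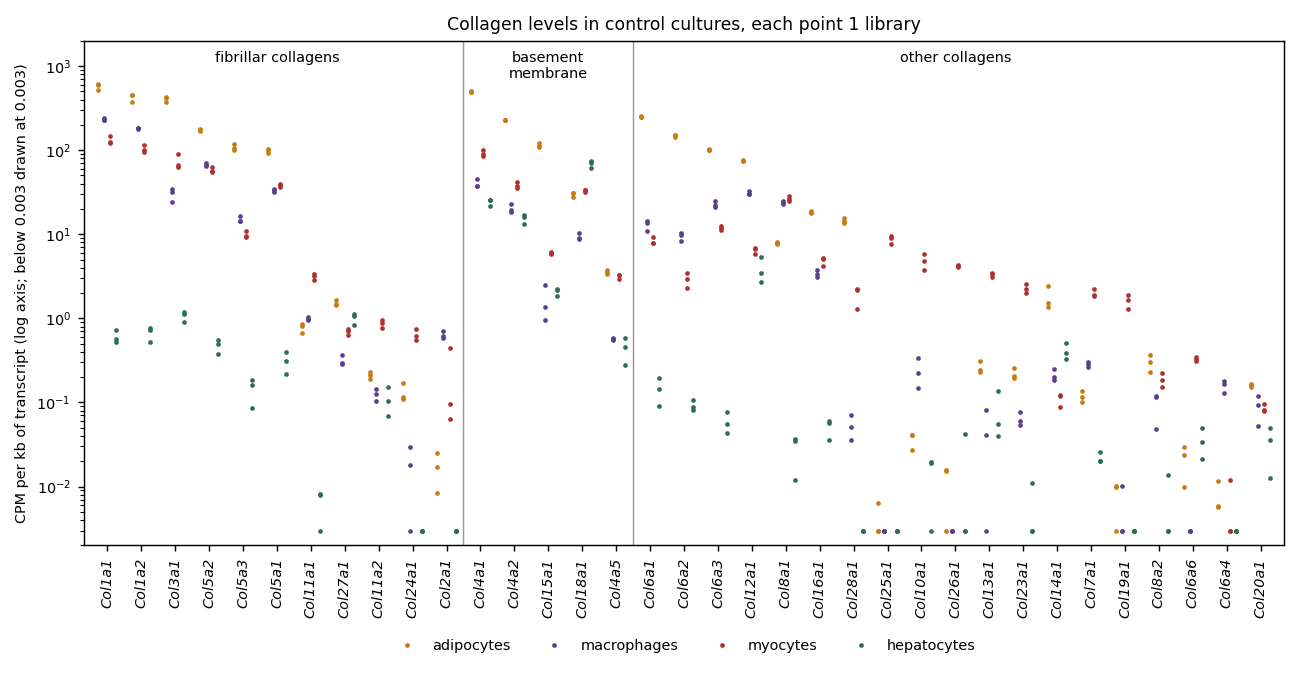
Level of each of the 35 tested collagens in the 12 control libraries, as CPM per kb of transcript on a log axis, with 1 point per library, colours for the cell types and values below 0.003 drawn at 0.003. Genes are ordered within class by their level; adipocytes (orange) lead for most fibrillar and basement membrane genes, hepatocytes (green) lead for Col18a1, and a run of myocyte points (red) stands above the rest among the other collagens.

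Levels of different genes were compared as CPM per kb of the longest protein-coding transcript. In adipocytes Col1a1 led with 575.7 ± 48.5 CPM per kb (mean ± SD, n = 3), followed by Col4a1 at 495.3 ± 3.92, Col1a2 at 426.4 ± 45.3 and Col3a1 at 410.3 ± 29.9 CPM per kb. Col1a2 and Col3a1 lay within each other's spread. The order of Col1a2 depended on the length used, since with merged exon length it stood at 183.5 ± 19.5, below Col6a1 (233.6), Col3a1 (232.6) and Col4a2 (222.5 CPM per kb). Macrophages were led by Col1a1 at 232.1 ± 7.9 and Col1a2 at 182.6 CPM per kb (78.6 with merged exon length), then by Col5a2 at 67.95 CPM per kb, a chain of type V collagen, which sets fibril diameter. Myocytes had Col1a1 at 131.4 ± 13.7, Col1a2 at 103.5 ± 11 and Col4a1 at 91.28 CPM per kb in front, while with merged exon length Col4a1 (80.9) stood above Col1a2 (44.5 CPM per kb). In hepatocytes the highest collagen was Col18a1 at 68.24 ± 6.63 CPM per kb, the gene whose protein ends in the endostatin fragment, followed by Col4a1 at 24.2 and Col4a2 at 15.45 CPM per kb, while no fibrillar collagen exceeded Col3a1 at 1.075 CPM per kb.

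Col1a1 stood at 3085, 3534 and 3622 CPM in the control adipocytes, 1430.1, 1344 and 1355 CPM in macrophages, 872, 722 and 744 CPM in myocytes and 4.33, 3.38 and 3.08 CPM in hepatocytes. The cell types did not overlap, in that order from high to low. The level in adipocytes exceeded that in macrophages by 1.31 ± 0.15 log2 units (± SE), that in myocytes by 2.13 ± 0.16 and that in hepatocytes by 9.89 ± 0.23. The partner chain Col1a2 had 2001, 2411 and 2429, 991, 954 and 985, 618, 538 and 503 and 4.14, 3.94 and 2.78 CPM in the same cultures and followed the same order.

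Type III collagen often runs with type I, but the macrophages had relatively little of it. Col3a1 read 2094, 2409 and 2346 CPM in adipocytes, 192, 133 and 175 CPM in macrophages, 496, 355 and 367 CPM in myocytes and 6.59, 6.27 and 5.09 CPM in hepatocytes. Macrophages thus lay below myocytes (log2 difference -1.29 ± 0.20, edgeR adjusted p = 7.21e-07), whereas for Col1a1 they lay above them (0.82 ± 0.15, edgeR adjusted p = 1.3e-05).

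Col4a1 and Col4a2 lie head to head on chromosome 8, where their annotated genes overlap by 22 bases, and are transcribed in opposite directions. Col4a1 had 3282, 3299 and 3248 CPM in control adipocytes, 298, 247 and 250.0 CPM in macrophages, 659, 589 and 563 CPM in myocytes and 142, 170.0 and 168 CPM in hepatocytes. Col4a2 had 1462, 1472 and 1484, 146, 119.8 and 126, 271, 244 and 226 and 86.2, 105 and 108 CPM. For both, adipocytes came first and myocytes second, and macrophages exceeded hepatocytes by a smaller margin of 0.73 ± 0.14 log2 units for Col4a1 (edgeR adjusted p = 1.73e-05) and 0.39 ± 0.14 for Col4a2 (edgeR adjusted p = 0.0117). Col4a5, on the X chromosome beside Col4a6, was also tested, while Col4a3, Col4a4 and Col4a6 were under the filter with 249.8, 235 and 129 counts summed over the 36 libraries. The other 6 collagens under the filter were fibril-associated Col9a1 (5 counts in all), Col9a2 (54), Col9a3 (164.7) and Col22a1 (74), the type VI chain Col6a5 (83.1) and the transmembrane Col17a1 (91).

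Each pair of cell types was tested over all 15340 genes that passed the filter. Adipocytes and macrophages differed in 31 of 35 collagens, 26 higher and 5 lower in adipocytes, where 77.5% of all tested genes differed (39.6% higher and 37.9% lower). Adipocytes and myocytes also differed in 31, with 18 higher and 13 lower in adipocytes (78.2% of all genes, 39% higher and 39.1% lower). Between adipocytes and hepatocytes 29 differed, 28 of them higher in adipocytes and 1 lower (81.1% of all genes, 41.4% higher and 39.7% lower), and Col18a1 was the exception at -1.19 ± 0.09 log2 units. Macrophages and myocytes differed in 31, with 11 higher and 20 lower in macrophages (82.2% of all genes, 39.3% higher and 42.8% lower). Macrophages and hepatocytes differed in 28, with 24 higher and 4 lower in macrophages (82.1% of all genes, 41.4% higher and 40.7% lower). Myocytes and hepatocytes differed in 34, with 31 higher and 3 lower in myocytes (86.6% of all genes, 44.9% higher and 41.7% lower). Of the 35 tested collagens, the mean was highest in adipocytes for 20, in myocytes for 12, in macrophages for 2 and in hepatocytes for 1.

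Among the 12 collagens that were highest in myocytes, 3 were transmembrane collagens. Col25a1 encodes a transmembrane collagen of muscle that motor axons need. It had 50.8, 61.0 and 63.8 CPM in control myocytes, 0, 0 and 0.0422 CPM in adipocytes and 0 in every control library of macrophages and hepatocytes. Col13a1, a transmembrane collagen of the neuromuscular junction, had 9.72, 10.8 and 10.9 CPM in myocytes and 0.996, 0.732 and 0.760 CPM in adipocytes. Col10a1, known from hypertrophic cartilage, had 15.1, 11.7 and 18.1 CPM in myocytes and 0.466, 1.06 and 0.692 CPM in macrophages. Col23a1, which also spans the membrane, and Col26a1, Col19a1, Col7a1, Col6a6, Col24a1, Col11a1, Col11a2 and Col8a1 were the others of this group of 12. In macrophages the same was true of Col2a1, the cartilage collagen, with 3.18, 2.97 and 3.63 CPM, and of Col6a4 with 1.31, 0.957 and 1.21 CPM.

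The remaining large gap was type VI collagen, which forms beaded filaments around cells. Col6a1 had 1035, 1022 and 1012 CPM in control adipocytes, 58.1, 45.3 and 56.1 CPM in macrophages, 38.0, 32.6 and 32.1 CPM in myocytes and 0.376, 0.799 and 0.591 CPM in hepatocytes. Adipocytes exceeded all others, by 4.26 ± 0.21 log2 units over macrophages and 4.90 ± 0.22 over myocytes. Col28a1, a relative with a short helix, was at 66.3, 61.1 and 57.9 CPM in adipocytes, 5.46, 9.56 and 9.28 CPM in myocytes and 0.297, 0.151 and 0.216 CPM in macrophages. Adipocytes, which led in these collagens, also held the highest sum of fibroblast markers. The part of fibroblasts in these levels was not tested.

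A minority of collagens was called under butyrate in each cell type. With TMM scaling and all libraries, more of them went down than up. Of the 35, 25 had at least 1 CPM in control adipocytes, 13 in hepatocytes, 23 in macrophages and 31 in myocytes. Low counts limit what can be called, and the shares over all genes were not matched for level. In adipocytes 10 of 35 were called, with 2 raised and 8 lowered, where 61% of all 15340 genes were called (30.7% raised and 30.3% lowered). In macrophages 15 were called, 6 raised and 9 lowered (65% of all genes, 31.9% raised and 33.2% lowered). In myocytes 16 were called, 7 raised and 9 lowered (66.5% of all genes, 33.1% raised and 33.4% lowered). In hepatocytes 9 were called, 2 raised and 7 lowered (63.5% of all genes, 31% raised and 32.4% lowered). The median log2 fold change over the collagens with a usable fold was -0.0121 in adipocytes, -0.18 in hepatocytes, -0.136 in macrophages and -0.0154 in myocytes, while the median of all tested genes lay between -0.00835 and 0. When libraries were scaled by their totals instead, the median of all genes moved by 0.133 in myocytes and 0.202 in macrophages, and the split turned to 8 raised and 4 lowered in macrophages and to 11 and 6 in myocytes. The split was then 3 and 5 in hepatocytes and 3 and 7 in adipocytes. All directions given here are therefore relative to the bulk of genes, and no called member changed sign under any setting tried. In the macrophage cultures 8 macrophage markers summed to 17825 to 18009 CPM under control and 11301 to 11909 CPM under butyrate, stellate cell and pericyte markers to 159.1 to 174.4 and 59.3 to 71.7 CPM (Lrat at 0 in both groups), and fibroblast markers to 378 to 399.6 and 308 to 372 CPM (Mfap4 at 0 in both), and their part in the collagen results there was not tested. Without butyrate replicate 3, the myocyte library rich in fibroblast markers, 12 collagens were called in myocytes, 3 raised and 9 lowered. Without butyrate replicate 2, which held the most hepatocyte markers, 14 were called, and more of these were raised than lowered (split by class below).

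Across the cell types, 26 of the 35 collagens were called under butyrate in at least 1 of the 4, 9 in at least 3 and 2 in all 4. Of the 26, 11 were only raised, 13 only lowered and 2 raised in some cultures and lowered in others. The 9 that edgeR called nowhere were Col1a2, Col6a2, Col16a1, Col7a1, Col23a1, Col24a1, Col19a1, Col6a4 and Col6a6. By class, the fibrillar collagens had 0 raised and 3 lowered in adipocytes, 0 and 4 in hepatocytes, 2 and 3 in macrophages and 2 and 2 in myocytes. Basement membrane collagens had 1 raised and 2 lowered in adipocytes, 0 and 2 in hepatocytes, 1 and 1 in macrophages and 1 and 0 in myocytes. The other collagens had 1 raised and 3 lowered in adipocytes, 2 and 1 in hepatocytes, 3 and 5 in macrophages and 4 and 7 in myocytes. In myocytes the 3 classes held 1 raised and 2 lowered, 0 and 0, and 2 and 7 without butyrate replicate 3, and 2 and 0, 1 and 0, and 5 and 6 without butyrate replicate 2. Libraries of butyrate and control did not overlap for 15 collagens in adipocytes (67.3% of all tested genes), 12 in hepatocytes (68.5%), 18 in macrophages (72.2%) and 11 in myocytes (64.8%).

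**Figure D2:**
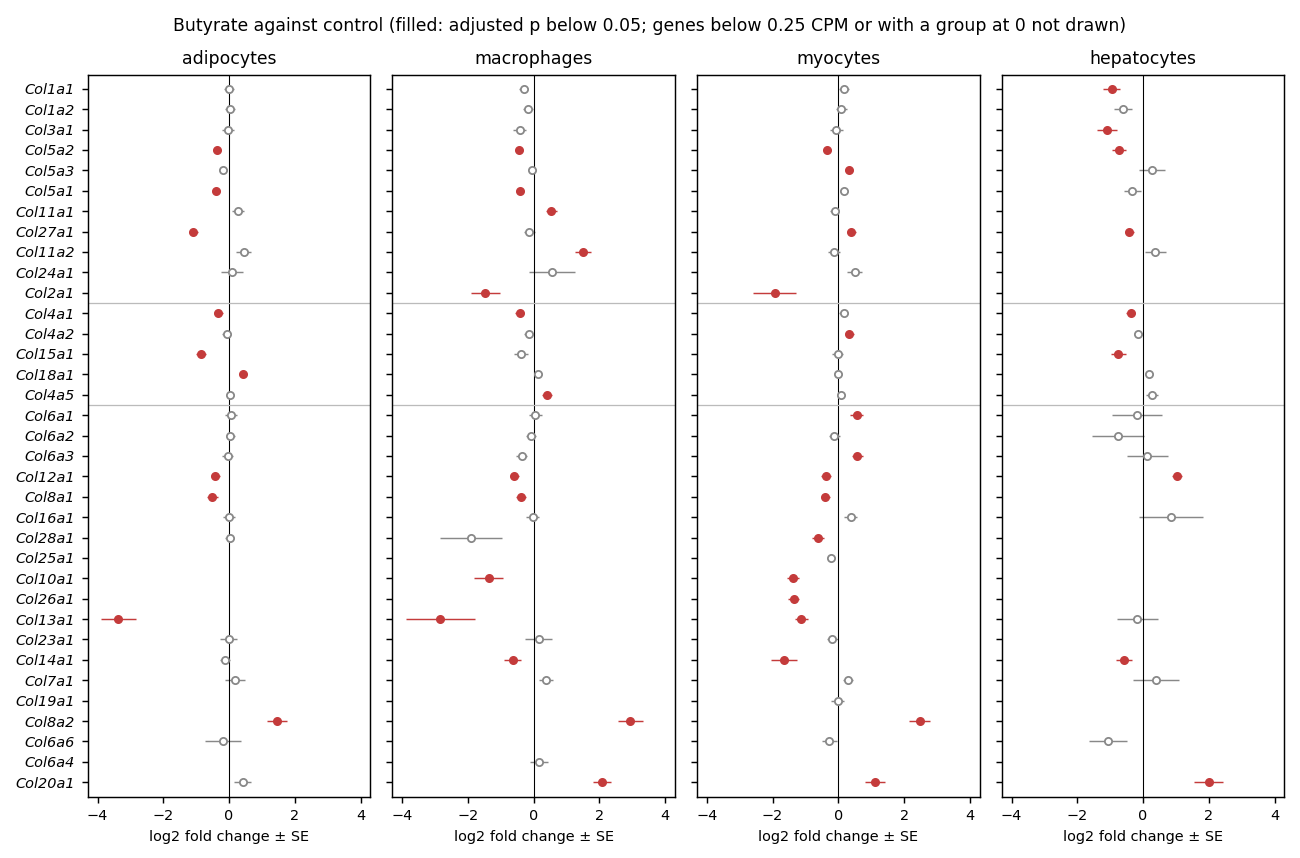
Log2 fold change of each collagen under butyrate against control (point, ± SE as the line) in the 4 cell types, fibrillar genes at the top, basement membrane genes in the middle and other collagens at the bottom; filled points have an adjusted p below 0.05 in edgeR. Genes under 0.25 CPM in both groups or with a group at 0, such as Col25a1 in macrophages, are not drawn. Col8a2 and Col20a1 stand at the right and Col13a1 at the left, while Col1a1 and Col1a2 stay near 0 outside the hepatocytes.

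Col1a1 of type I collagen was called in hepatocytes alone by edgeR, and its call in macrophages depended on the setting. In adipocytes Col1a1 read 3085, 3534 and 3622 CPM under control, 3759.9, 3112 and 4952 CPM under βOHB and 3578, 2792 and 3852 CPM under butyrate. The 3 treatments overlapped (log2 fold change 0.00 ± 0.15, edgeR adjusted p = 1, 95% interval -0.31 to 0.31). In macrophages the values were 1430.1, 1344 and 1355 CPM under control, 1302, 1449.9 and 1488 CPM under βOHB and 850.0, 1269.6 and 1209.7 CPM under butyrate. Butyrate lay below both other groups there, without a call (log2 fold change -0.31 ± 0.15, edgeR adjusted p = 0.0728, interval -0.62 to 0.00). It was called with limma-voom (adjusted p = 0.0348), without the filter (0.00397), with the 9 macrophage libraries alone (0.0219), with the replicate block (0.0375) and without butyrate replicate 2 (0.0419). Myocytes had 872, 722 and 744 CPM under control, 740.0, 972 and 803 CPM under βOHB and 785, 818 and 1039.8 CPM under butyrate, again with overlap (log2 fold change 0.18 ± 0.15, edgeR adjusted p = 0.309, interval -0.13 to 0.49). Hepatocytes were the exception at very low levels, with 4.33, 3.38 and 3.08 CPM under control, 3.68, 3.26 and 3.22 CPM under βOHB and 2.07, 1.88 and 1.56 CPM under butyrate. All butyrate values were the lowest of the 9, and Col1a1 fell there (log2 fold change -0.96 ± 0.26, edgeR adjusted p = 0.00202), a call that limma-voom did not make (adjusted p = 0.149).

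Col1a2 had 2456, 2028 and 2468 CPM in butyrate-treated adipocytes, 732, 945 and 924 CPM in macrophages, 495, 507 and 769 CPM in myocytes and 2.54, 2.68 and 1.86 CPM in hepatocytes. Set against the control values above, its log2 fold changes were 0.02 ± 0.16, -0.17 ± 0.16, 0.09 ± 0.16 and -0.60 ± 0.27 in that order. Groups overlapped in adipocytes and myocytes. The edgeR adjusted p in hepatocytes was 0.0542 and it was 0.0181 with DESeq2, 0.00516 without the filter, 0.0177 with the 9 hepatocyte libraries alone and 0.0241 without control replicate 3.

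Col3a1 behaved in a similar way. Its butyrate values were 2395, 1928 and 2360.2 CPM in adipocytes, 87.9, 139 and 144 CPM in macrophages and 314, 316 and 532 CPM in myocytes, all overlapping the controls. In macrophages the log2 fold change was -0.43 ± 0.20 (edgeR adjusted p = 0.0582), and Col3a1 was called there with limma-voom (adjusted p = 0.0376), without the filter (4.12e-05), with the 9 macrophage libraries alone (0.0294), without control replicate 2 (0.0228) and without butyrate replicate 3 (0.0387). Hepatocytes had 6.59, 6.27 and 5.09 CPM under control, 6.15, 7.06 and 5.49 CPM under βOHB and 2.54, 2.97 and 2.82 CPM under butyrate. The butyrate libraries lay apart from the other 6, and Col3a1 fell (log2 fold change -1.10 ± 0.31, edgeR adjusted p = 0.0027; adjusted p = 0.138 in limma-voom). The markers of stellate cells and pericytes, which make fibrillar collagen in liver, summed to 19.8 to 27.7 CPM in control and 23 to 26.3 CPM in butyrate-treated hepatocytes. Of these 8 markers, 5 had a mean above 1 CPM in control, where Cspg4 was at 0, and 3 under butyrate. Endothelial markers summed to 99.5 to 112 CPM in control and 37.7 to 42.6 CPM under butyrate. The part of any of these cells in the result was not tested.

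Col5a2, a chain of type V collagen, was the only member that fell in all 4 cell types by this test. Adipocytes had 1115, 1169 and 1149 CPM under control, 1259, 1141 and 1329 CPM under βOHB and 936, 815 and 906 CPM under butyrate. The butyrate values were below every other library (log2 fold change -0.37 ± 0.11, edgeR adjusted p = 0.00323). Macrophages had 469.6, 434 and 447 CPM under control, 429, 449.6 and 473 CPM under βOHB and 293, 363 and 343 CPM under butyrate, with the same separation (log2 fold change -0.44 ± 0.11, edgeR adjusted p = 0.00066). In myocytes the values were 414, 359.6 and 376 CPM under control, 327, 375 and 357 CPM under βOHB and 281, 251 and 373 CPM under butyrate. There butyrate replicate 3 reached into the control range (log2 fold change -0.35 ± 0.11, edgeR adjusted p = 0.00532). Hepatocytes had 3.64, 3.26 and 2.48 CPM under control, 3.21, 3.63 and 4.33 CPM under βOHB and 1.70, 1.73 and 2.28 CPM under butyrate, and butyrate again lay lowest (log2 fold change -0.72 ± 0.21, edgeR adjusted p = 0.00417). Under scaling by library totals the edgeR adjusted p was 0.111 in macrophages and 0.113 in myocytes, without myocyte butyrate replicate 2 it was 0.0583 in myocytes, and limma-voom gave 0.121 in hepatocytes.

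Col5a1, its partner chain, fell in adipocytes and macrophages. The adipocyte libraries had 783, 839 and 862 CPM under control, 860.4, 795 and 1109.5 CPM under βOHB and 677, 558 and 661 CPM under butyrate. Control and butyrate did not overlap (log2 fold change -0.39 ± 0.12, edgeR adjusted p = 0.00535; adjusted p = 0.0515 without butyrate replicate 2). Macrophages had 290.4, 271 and 286 CPM under control, 266, 301 and 291 CPM under βOHB and 171, 241 and 221 CPM under butyrate. Butyrate was lower in all 3 libraries (log2 fold change -0.42 ± 0.12, edgeR adjusted p = 0.00288; adjusted p = 0.061 without butyrate replicate 1 and 0.168 with library totals). Col5a3, the third chain, rose in myocytes alone among the tests run, with 67.2, 57.4 and 58.1 CPM under control, 63.6, 81.2 and 65.5 CPM under βOHB and 70.3, 68.1 and 90.6 CPM under butyrate. The butyrate values were above the controls (log2 fold change 0.33 ± 0.12, edgeR adjusted p = 0.0144). Without myocyte butyrate replicate 3 the log2 fold change was 0.19 (adjusted p = 0.163), and without control replicate 2 or 3 the adjusted p was 0.0605 or 0.0531.

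Col27a1, a fibrillar collagen of cartilage, was the called fibrillar gene with the largest fold in adipocytes and went in different directions. Adipocytes had 11.4, 10.9 and 12.8 CPM under control, 12.2, 10.1 and 11.0 CPM under βOHB and 5.67, 5.48 and 5.34 CPM under butyrate. Butyrate brought all libraries below the other 6 (log2 fold change -1.09 ± 0.13, edgeR adjusted p = 1.12e-08), a fold of 2.12. Hepatocytes had 8.59, 8.06 and 6.39 CPM under control, 8.31, 6.42 and 7.60 CPM under βOHB and 6.04, 5.40 and 5.82 CPM under butyrate, and Col27a1 fell there as well (log2 fold change -0.41 ± 0.14, edgeR adjusted p = 0.00953; adjusted p = 0.0661 without control replicate 1). Myocytes had 4.77, 5.64 and 5.32 CPM under control, 5.28, 5.78 and 4.48 CPM under βOHB and 6.51, 5.75 and 8.41 CPM under butyrate, and there it rose (log2 fold change 0.39 ± 0.13, edgeR adjusted p = 0.0112). The rise was lost without butyrate replicate 3 (0.22, adjusted p = 0.145) or control replicate 1 (adjusted p = 0.0567). In macrophages the level was near 2 CPM and no change was called (log2 fold change -0.14 ± 0.17, edgeR adjusted p = 0.503).

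The cartilage collagens of types II and XI changed in macrophages at low levels. Col11a2 had 0.636, 0.756 and 0.865 CPM under control, 0.611, 0.891 and 1.35 CPM under βOHB and 1.78, 2.11 and 2.49 CPM under butyrate. Butyrate stood above all other libraries (log2 fold change 1.49 ± 0.24, edgeR adjusted p = 2.73e-06). Col11a1 had 7.93, 7.56 and 7.40 CPM under control, 9.47, 8.20 and 9.09 CPM under βOHB and 10.3, 12.6 and 10.3 CPM under butyrate and rose less (log2 fold change 0.54 ± 0.17, edgeR adjusted p = 0.00629). Col2a1 had 3.18, 2.97 and 3.63 CPM under control, 3.19, 2.77 and 2.18 CPM under βOHB and 1.04, 1.29 and 1.18 CPM under butyrate, and its butyrate libraries were lowest (log2 fold change -1.47 ± 0.44, edgeR adjusted p = 0.0053). In myocytes Col2a1 read 0.321, 0.484 and 2.29 CPM under control, 0.0918, 0.267 and 0.798 CPM under βOHB and 0.325, 0.0809 and 0.403 CPM under butyrate. One control library carried most of its level, and the fall there (log2 fold change -1.94 ± 0.65, edgeR adjusted p = 0.0113) was -0.59 (adjusted p = 0.446) without control replicate 3 and had an adjusted p of 0.0575 without butyrate replicate 2.

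**Figure D3:**
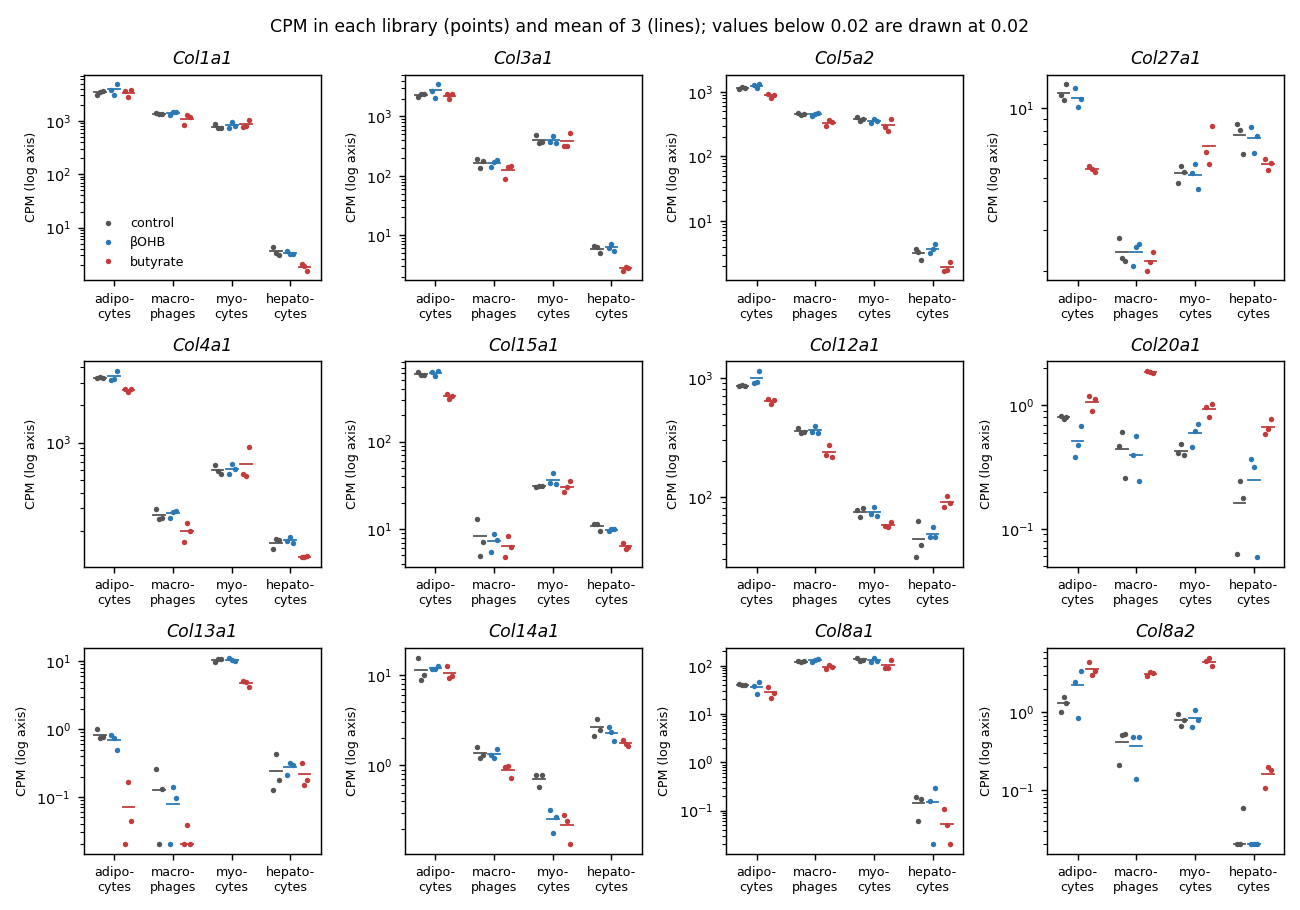
CPM on a log axis in each of the 36 libraries for 12 collagens, in black for control, blue for βOHB and red for butyrate, with short lines at the means of 3 and values below 0.02 drawn at 0.02. Butyrate points lie apart from both other groups for Col8a2, Col20a1 and Col12a1 in macrophages and for Col27a1 and Col15a1 in adipocytes, and the βOHB points of Col14a1 in myocytes lie below the controls.

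Among the basement membrane collagens, Col4a1 fell in 3 cell types and Col4a2 in none. In adipocytes Col4a1 had 3282, 3299 and 3248 CPM under control, 3150.4, 3185 and 3720.2 CPM under βOHB and 2682, 2503 and 2673 CPM under butyrate. Butyrate lay below the rest by a small margin (log2 fold change -0.32 ± 0.14, edgeR adjusted p = 0.0398), and leaving out any of these 6 control and butyrate libraries gave an adjusted p of 0.0621 to 0.119. Macrophages had 298, 247 and 250.0 CPM under control, 251, 282 and 288 CPM under βOHB and 163, 229 and 199 CPM under butyrate. Their butyrate values were the lowest (log2 fold change -0.43 ± 0.14, edgeR adjusted p = 0.00717), with an adjusted p of 0.0908 without butyrate replicate 1 and 0.0545 without control replicate 1. Hepatocytes had 142, 170.0 and 168 CPM under control, 166, 178 and 160.1 CPM under βOHB and 123, 122 and 126 CPM under butyrate. No butyrate library reached the controls (log2 fold change -0.37 ± 0.14, edgeR adjusted p = 0.0195), and the adjusted p was 0.0699 without control replicate 2 and 0.0629 without control replicate 3. With library totals the call was lost in all 3, with adjusted p of 0.159, 0.219 and 0.069. In myocytes Col4a1 read 659, 589 and 563 CPM under control, 559, 671 and 619 CPM under βOHB and 564, 541 and 918 CPM under butyrate, with butyrate replicate 3 far above the others (log2 fold change 0.16 ± 0.14, edgeR adjusted p = 0.306).

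Col4a2 had 1418, 1327 and 1446 CPM in butyrate-treated adipocytes, 94.4, 140.2 and 117 CPM in macrophages, 267, 251 and 413 CPM in myocytes and 87.2, 88.2 and 95.2 CPM in hepatocytes. It rose in myocytes (log2 fold change 0.33 ± 0.14, edgeR adjusted p = 0.0359), where the groups overlapped. Without butyrate replicate 3 the log2 fold change there was 0.07 (adjusted p = 0.635), and without control replicate 2 or 3 the adjusted p was 0.0776 or 0.131. The 2 genes share a promoter region, and their transcript ratio per kb, which does not depend on the scaling of libraries, was lower under butyrate in every culture. Col4a1 to Col4a2 was 2.169 ± 0.0308 in control and 1.828 ± 0.0223 in butyrate-treated adipocytes (mean ± SD, n = 3). The same ratio went from 1.977 to 1.645 in macrophages, from 2.384 to 2.109 in myocytes and from 1.57 to 1.338 in hepatocytes. With βOHB it was 2.148, 1.944, 2.387 and 1.567, and the ratio was not tested.

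The collagens at the border of basement membranes moved apart in adipocytes. Col15a1 had 629.5, 569.8 and 579.9 CPM under control, 626, 560.2 and 644 CPM under βOHB and 348, 303 and 335 CPM under butyrate. The butyrate range lay wholly below the other 6 (log2 fold change -0.85 ± 0.15, edgeR adjusted p = 1.04e-05), a fold of 1.81. In hepatocytes Col15a1 had 11.3, 11.6 and 9.46 CPM under control, 9.47, 9.95 and 10.1 CPM under βOHB and 6.89, 5.95 and 6.30 CPM under butyrate and also fell (log2 fold change -0.75 ± 0.23, edgeR adjusted p = 0.00512). All 8 endothelial markers fell in the same hepatocytes, with sums of 99.5 to 112 CPM under control and 37.7 to 42.6 CPM under butyrate, and their part was not tested. Col18a1 had 154, 174 and 174 CPM under control, 179, 162 and 214 CPM under βOHB and 221, 212 and 241 CPM under butyrate. Here butyrate was higher than control in all libraries (log2 fold change 0.43 ± 0.09, edgeR adjusted p = 0.000217). Endothelial markers fell from sums of 211 to 239 CPM to 141 to 164 CPM in the same adipocyte cultures, and pericyte and stellate markers from 350.5 to 379.7 CPM to 169.2 to 184.7 CPM, and their part in these results was not tested. In hepatocytes, where Col18a1 led all collagens, it read 339.9, 411 and 395 CPM under control, 396, 449 and 369 CPM under βOHB and 440.0, 416 and 431 CPM under butyrate and was not called (log2 fold change 0.17 ± 0.09, edgeR adjusted p = 0.114). Col4a5 rose in macrophages, with 3.77, 3.58 and 3.72 CPM under control, 3.27, 3.52 and 3.97 CPM under βOHB and 4.78, 5.15 and 4.73 CPM under butyrate (log2 fold change 0.40 ± 0.15, edgeR adjusted p = 0.0211; adjusted p = 0.0544 without control replicate 2, 0.0536 without butyrate replicate 2 and 0.0755 in limma-voom).

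Type VIII collagen, a short-chain network collagen of vessel walls and the cornea, gave the clearest contrast within a type. Its minor chain Col8a2 rose in adipocytes, macrophages and myocytes. Adipocytes had 0.996, 1.59 and 1.31 CPM under control, 2.48, 0.846 and 3.42 CPM under βOHB and 4.44, 3.01 and 3.37 CPM under butyrate. Butyrate lay above all controls, while βOHB ranged from below the controls into the butyrate values (log2 fold change 1.46 ± 0.30, edgeR adjusted p = 0.000132). Macrophages had 0.212, 0.504 and 0.519 CPM under control, 0.480, 0.141 and 0.484 CPM under βOHB and 2.91, 3.31 and 3.21 CPM under butyrate, which put butyrate far above the other 6 (log2 fold change 2.93 ± 0.37, edgeR adjusted p = 7.39e-08), a fold of 7.65. Myocytes had 0.963, 0.661 and 0.792 CPM under control, 0.643, 1.07 and 0.798 CPM under βOHB and 4.52, 5.06 and 3.89 CPM under butyrate, again with no overlap (log2 fold change 2.47 ± 0.32, edgeR adjusted p = 1.19e-07), a fold of 5.56. In hepatocytes there were 9 counts over the butyrate libraries against 1 in the controls, too few for a call (edgeR adjusted p = 0.0779).

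The major chain Col8a1 fell in the same 3 cultures. Adipocytes had 41.8, 39.1 and 40.4 CPM under control, 37.4, 26.4 and 47.1 CPM under βOHB and 35.8, 21.9 and 27.7 CPM under butyrate. Control and butyrate were apart (log2 fold change -0.51 ± 0.16, edgeR adjusted p = 0.00814; adjusted p = 0.0913 without butyrate replicate 2). Macrophages had 123, 117 and 127 CPM under control, 121, 129 and 136 CPM under βOHB and 85.2, 103 and 94.8 CPM under butyrate, where butyrate was lowest (log2 fold change -0.37 ± 0.15, edgeR adjusted p = 0.0307), with an adjusted p of 0.064 to 0.152 without control replicate 1 or 3 or butyrate replicate 1 or 3. Myocytes had 145, 126 and 134 CPM under control, 117, 147 and 123 CPM under βOHB and 88.5, 88.4 and 132 CPM under butyrate. One butyrate library lay within the control range (log2 fold change -0.39 ± 0.15, edgeR adjusted p = 0.0224), and the adjusted p was 0.0798 to 0.116 without control replicate 1 or butyrate replicate 1 or 2. With library totals Col8a1 was not called in macrophages (adjusted p = 0.419) or myocytes (adjusted p = 0.152). The ratio of Col8a1 to Col8a2 per kb went from 27.52 to 6.662 in adipocytes, from 299.4 ± 169 to 25.43 ± 0.886 in macrophages and from 144.4 ± 16.8 to 20.06 ± 7.56 in myocytes (mean ± SD, n = 3).

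Of the fibril-associated collagens, Col20a1 rose and Col14a1 fell wherever they were called, and Col12a1 did both. Col20a1 was a low transcript everywhere, and its 7 libraries above 1 CPM were all butyrate libraries. It passed the filter only through the group where it was high, so its rise is not independent of the filter. Macrophages had 0.466, 0.605 and 0.260 CPM under control, 0.393, 0.563 and 0.242 CPM under βOHB and 1.91, 1.87 and 1.82 CPM under butyrate. The butyrate values were tightly grouped and above all others (log2 fold change 2.08 ± 0.27, edgeR adjusted p = 8.29e-08). Myocytes had 0.413, 0.484 and 0.396 CPM under control, 0.459, 0.622 and 0.710 CPM under βOHB and 0.976, 0.809 and 1.03 CPM under butyrate (log2 fold change 1.11 ± 0.30, edgeR adjusted p = 0.00182), and hepatocytes had 0.0627, 0.246 and 0.177 CPM under control, 0.368, 0.316 and 0.0585 CPM under βOHB and 0.583, 0.644 and 0.781 CPM under butyrate (log2 fold change 1.99 ± 0.44, edgeR adjusted p = 0.000189), both with butyrate highest. In adipocytes the values were 0.823, 0.776 and 0.802 CPM under control, 0.385, 0.476 and 0.676 CPM under βOHB and 1.18, 0.907 and 1.12 CPM under butyrate. Butyrate lay above control there too, but the change was not called (log2 fold change 0.41 ± 0.26, edgeR adjusted p = 0.185).

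Col12a1 coats type I fibrils. In adipocytes it read 854, 869.7 and 855 CPM under control, 897, 928 and 1145 CPM under βOHB and 666, 607 and 649 CPM under butyrate. Butyrate lay below the rest (log2 fold change -0.42 ± 0.14, edgeR adjusted p = 0.00856). Macrophages had 381, 346 and 349 CPM under control, 350.3, 395 and 342 CPM under βOHB and 225, 274 and 215 CPM under butyrate, with the same order (log2 fold change -0.59 ± 0.14, edgeR adjusted p = 0.000428). Myocytes had 76.7, 67.5 and 79.8 CPM under control, 71.5, 81.3 and 68.7 CPM under βOHB and 56.4, 55.2 and 61.5 CPM under butyrate, a smaller step (log2 fold change -0.37 ± 0.14, edgeR adjusted p = 0.024; adjusted p of 0.0572 to 0.0834 without control replicate 1 or 3 or butyrate replicate 1 or 2, and 0.145 with library totals). Hepatocytes went the other way with 30.9, 62.0 and 39.6 CPM under control, 45.6, 55.3 and 45.9 CPM under βOHB and 82.7, 101 and 89.0 CPM under butyrate. The butyrate libraries were all above the controls, and Col12a1 rose (log2 fold change 1.04 ± 0.15, edgeR adjusted p = 3.35e-07), a fold of 2.05.

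Col14a1 fell in myocytes, macrophages and hepatocytes. Myocytes had 0.780, 0.572 and 0.792 CPM under control, 0.321, 0.178 and 0.266 CPM under βOHB and 0.285, 0.243 and 0.134 CPM under butyrate. Both treatments lay below all controls (log2 fold change -1.65 ± 0.40, edgeR adjusted p = 0.000547 for butyrate). Macrophages had 1.61, 1.21 and 1.30 CPM under control, 1.31, 1.22 and 1.50 CPM under βOHB and 0.956, 0.975 and 0.719 CPM under butyrate (log2 fold change -0.64 ± 0.26, edgeR adjusted p = 0.0346), and hepatocytes had 2.13, 3.26 and 2.48 CPM under control, 2.68, 2.32 and 1.87 CPM under βOHB and 1.91, 1.73 and 1.62 CPM under butyrate (log2 fold change -0.58 ± 0.23, edgeR adjusted p = 0.0299). In neither did butyrate overlap with control, but limma-voom gave adjusted p of 0.141 and 0.138. In macrophages the adjusted p was 0.149 without control replicate 1, 0.0546 without butyrate replicate 1 and 0.146 without butyrate replicate 3, and in hepatocytes it was 0.192, 0.0669 and 0.0793 without control replicate 2, butyrate replicate 2 and butyrate replicate 3. In the control myocytes the markers of macrophages summed to 134.5 to 359.9 CPM, in βOHB to 49.2 to 131.3 CPM and in butyrate to 18.5 to 88.6 CPM, and their part in the result was not tested.

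The transmembrane Col13a1 fell with butyrate wherever it was called, which was in adipocytes, macrophages and myocytes. Myocytes, its main site, had 9.72, 10.8 and 10.9 CPM under control, 11.3, 10.5 and 10.1 CPM under βOHB and 5.13, 5.02 and 4.16 CPM under butyrate. All butyrate values were under the lowest of the other 6 (log2 fold change -1.13 ± 0.20, edgeR adjusted p = 9.48e-06), a fold of 2.19. Adipocytes had 0.996, 0.732 and 0.760 CPM under control, 0.813, 0.740 and 0.496 CPM under βOHB and 0, 0.165 and 0.0449 CPM under butyrate, where butyrate left little above 0 (log2 fold change -3.37 ± 0.54, edgeR adjusted p = 2.52e-06). In macrophages the level was close to 0, with 0.254, 0 and 0.130 CPM under control, 0, 0.141 and 0.0968 CPM under βOHB and 0, 0.0390 and 0 CPM under butyrate. Groups overlapped there, and the call (log2 fold change -2.84 ± 1.06, edgeR adjusted p = 0.0199) was lost without control replicate 1 (adjusted p = 0.193), butyrate replicate 1 (0.0681) or butyrate replicate 3 (0.0703). Another transmembrane collagen, Col25a1, had 14 counts in the butyrate-treated macrophages against 0 in the controls. With a floor of 3 counts over the group, scaled by library totals, it was at least 5.02-fold higher (edgeR adjusted p = 0.00151). TMM scaling would lower this bound. All 8 myotube markers rose in the same macrophages, with sums of 5.98 to 13.6 CPM under control and 19.9 to 63.8 CPM under butyrate, and their part was not tested. In myocytes, where Col25a1 was abundant, it read 50.8, 61.0 and 63.8 CPM under control, 61.9, 53.4 and 55.8 CPM under βOHB and 52.9, 54.4 and 42.1 CPM under butyrate and was not called (log2 fold change -0.23 ± 0.11, edgeR adjusted p = 0.0648).

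Further members of the other class moved in myocytes. Col26a1 had 11.7, 12.0 and 11.4 CPM under control, 12.0, 11.6 and 11.4 CPM under βOHB and 5.33, 4.69 and 3.62 CPM under butyrate. Butyrate lay lowest (log2 fold change -1.36 ± 0.18, edgeR adjusted p = 1.03e-06), a fold of 2.57. Col10a1 had 15.1, 11.7 and 18.1 CPM under control, 9.96, 9.77 and 11.1 CPM under βOHB and 5.90, 5.99 and 5.37 CPM under butyrate, also with butyrate lowest (log2 fold change -1.38 ± 0.19, edgeR adjusted p = 4.36e-07). Col10a1 fell in macrophages as well, with 0.466, 1.06 and 0.692 CPM under control, 0.655, 0.656 and 1.26 CPM under βOHB and 0.130, 0.429 and 0.254 CPM under butyrate (log2 fold change -1.37 ± 0.43, edgeR adjusted p = 0.00677; adjusted p = 0.0593 without control replicate 2). Col28a1 fell in myocytes, with 5.46, 9.56 and 9.28 CPM under control, 7.39, 8.40 and 7.27 CPM under βOHB and 6.75, 3.68 and 5.41 CPM under butyrate. Control and butyrate overlapped for it (log2 fold change -0.62 ± 0.18, edgeR adjusted p = 0.0035). The myotube markers summed to 23979 to 29923 CPM in control and 15343 to 21840 CPM in butyrate-treated myocytes, and their part in these falls was not tested.

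Type VI collagen was called in myocytes alone among the 4 tests, and there the call rested on 1 library. Col6a1 had 38.0, 32.6 and 32.1 CPM under control, 29.4, 36.0 and 26.5 CPM under βOHB and 37.1, 33.0 and 82.1 CPM under butyrate. Replicate 3 of butyrate stood apart and the other 2 lay near the controls (log2 fold change 0.56 ± 0.20, edgeR adjusted p = 0.0133). Without it the log2 fold change was 0.03 (adjusted p = 0.837). Col6a3 had 115, 125 and 119 CPM under control, 104, 128 and 108 CPM under βOHB and 142, 129.7 and 266 CPM under butyrate (log2 fold change 0.58 ± 0.17, edgeR adjusted p = 0.00321), and 0.18 without that library (adjusted p = 0.208). This was the library with 1566 CPM of fibroblast markers. In adipocytes, where type VI collagen was most abundant, Col6a1 read 1035, 1022 and 1012 CPM under control, 1079, 1024 and 1239 CPM under βOHB and 1091, 1006 and 1089 CPM under butyrate (log2 fold change 0.05 ± 0.18, edgeR adjusted p = 0.829, interval -0.32 to 0.43).

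Few collagens were called under βOHB, as was true of all genes. None of the 35 was called in adipocytes (0.00652% of all genes), in macrophages (0% of all genes) or in hepatocytes (0.00652% of all genes), and 1 was called, lowered, in myocytes (2.91% of all genes, 0.346% raised and 2.56% lowered) by edgeR. DESeq2 and limma-voom gave the same counts, although limma-voom called Col10a1 in myocytes (-0.52, adjusted p = 0.0239), a gene chosen here after its value was seen. At an unadjusted p under 0.05 there were 2 collagens in adipocytes, 0 in hepatocytes, 1 in macrophages and 4 in myocytes. The 1 called gene was Col14a1 in myocytes, whose values are given above. All 3 βOHB libraries were below all 3 controls (log2 fold change -1.47 ± 0.39, edgeR adjusted p = 0.0326, interval -2.27 to -0.67). The call was lost in limma-voom (adjusted p = 0.153) and in a fit of the 9 myocyte libraries alone (0.288). It was also lost without any of 5 of the 6 libraries compared, with adjusted p of 0.0633 to 0.195 (0.0855 without βOHB replicate 3, which held hepatocyte markers), the exception being control replicate 2. Macrophage markers were lower in the same βOHB libraries, as given above.

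The intervals show how large an effect the data would still allow. Among collagens with at least 1 CPM in control, the 95% interval of the βOHB effect lay within ±1 log2 unit for 23 of 25 in adipocytes, 13 of 13 in hepatocytes, 21 of 23 in macrophages and 30 of 31 in myocytes. The 5 genes of smallest p were taken in each culture. In adipocytes they were Col8a2 (0.81 ± 0.32, edgeR unadjusted p = 0.0165, edgeR adjusted p = 0.621), Col20a1 (-0.64 ± 0.30), Col26a1 with 0 counts against 2, Col6a2 (0.23 ± 0.14) and Col18a1 (0.14 ± 0.09). Col8a2 overlapped between βOHB and control, and Col20a1 did not. In macrophages they were Col7a1 (-0.58 ± 0.25, edgeR adjusted p = 1), Col11a1 (0.23 ± 0.17), Col26a1 with 1 count against 0, Col11a2 (0.33 ± 0.28) and Col6a2 (0.16 ± 0.15). Col7a1, the chain of anchoring fibrils, had 2.80, 2.67 and 2.47 CPM under control and 1.09, 1.97 and 2.27 CPM under βOHB.

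In myocytes the others after Col14a1 were Col10a1 (log2 fold change -0.54 ± 0.19, edgeR adjusted p = 0.142), Col18a1 (log2 fold change -0.23 ± 0.09, edgeR adjusted p = 0.243), Col2a1 (log2 fold change -1.40 ± 0.61, edgeR adjusted p = 0.297) and Col5a3 (0.20 ± 0.12). Col18a1 had 179, 189 and 188 CPM under control, 157, 161 and 156 CPM under βOHB and 209, 172 and 176 CPM under butyrate. Its βOHB values were the lowest of the 9 although no call was made. In hepatocytes they were Col11a2 (log2 fold change -0.76 ± 0.37, edgeR adjusted p = 0.91), Col24a1 and Col25a1 with 2 counts each against 0, Col5a2 (0.25 ± 0.19) and Col20a1 (0.62 ± 0.53). For the fibril-forming genes, the βOHB effect on Col1a1 was 0.21 (interval -0.10 to 0.52) in adipocytes, -0.08 (-0.57 to 0.40) in hepatocytes, 0.04 (-0.27 to 0.35) in macrophages and 0.11 (-0.20 to 0.41) in myocytes. For Col4a1 the effects were 0.03 in adipocytes, 0.07 in hepatocytes, 0.05 in macrophages and 0.03 in myocytes.

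**Figure D4:**
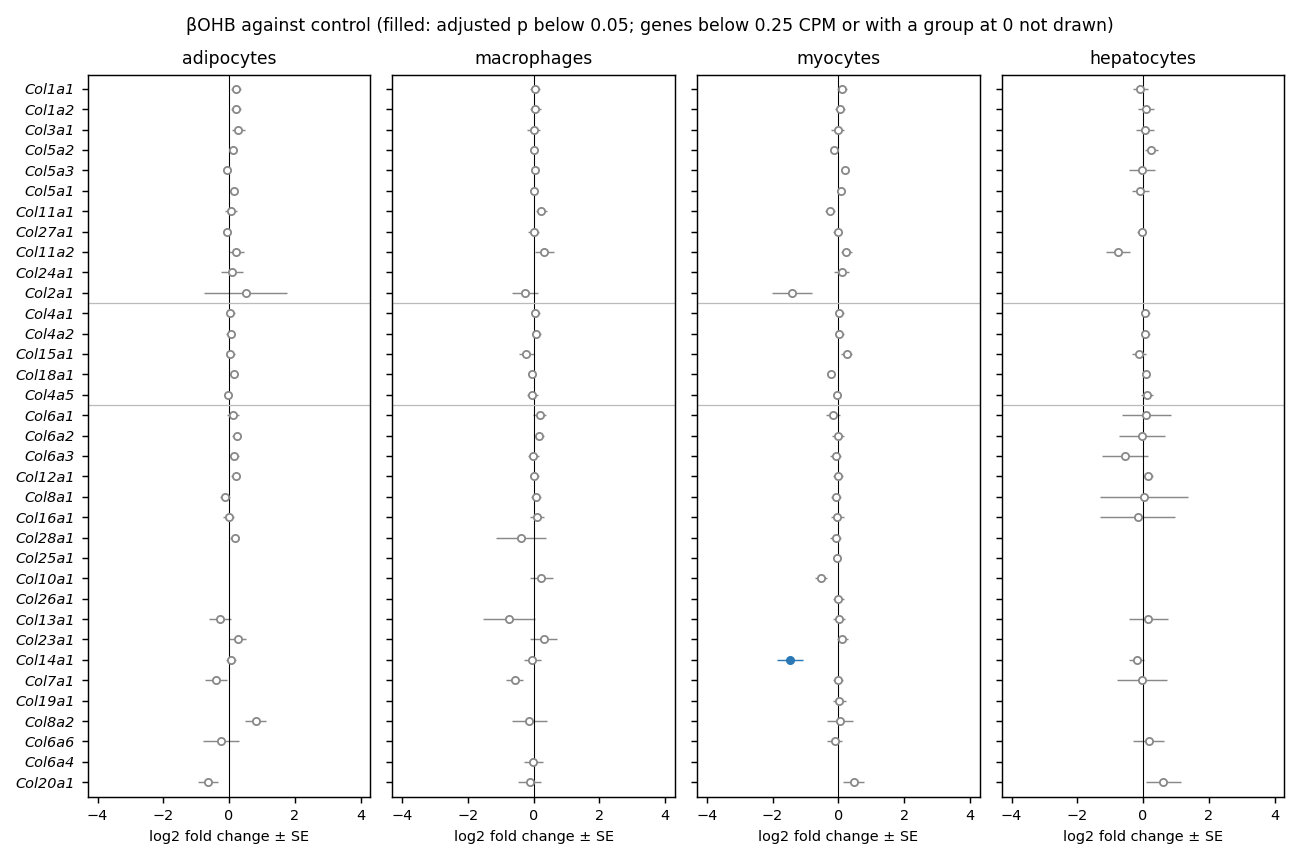
Log2 fold change of each collagen under βOHB against control (point, ± SE as the line) in the 4 cell types, on the same axis and in the same order as for butyrate, with genes under 0.25 CPM in both groups or with a group at 0 left out. Most points lie near 0 and the single filled point, with an adjusted p below 0.05 in edgeR, is Col14a1 in myocytes.

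Butyrate and βOHB, given at the same dose for the same time, were then compared with each other in 4 tests, 1 per cell type. In adipocytes 10 of 35 collagens differed, 2 higher and 8 lower with butyrate (59.5% of all genes, 30% higher and 29.5% lower). In macrophages 15 differed, 6 higher and 9 lower (64.7% of all genes, 31.8% higher and 32.8% lower). In myocytes it was 11, 6 higher and 5 lower (66% of all genes, 33.1% higher and 32.9% lower), and in hepatocytes also 11, 4 higher and 7 lower (63.5% of all genes, 30.5% higher and 33% lower). With library totals the splits were 3 higher and 6 lower in adipocytes, 4 and 5 in hepatocytes, 8 and 2 in macrophages and 14 and 3 in myocytes. RLE size factors gave 9 and 4 in myocytes and 3 and 7 in adipocytes. Without butyrate replicate 3 of myocytes, which held the 1566 CPM of fibroblast markers, the split there was 3 higher and 7 lower. Col6a1, Col6a3 and Col27a1 were among the genes that lost their calls (edgeR adjusted p = 0.201, 0.0666 and 0.116). Without butyrate replicate 2 the split was 9 and 3, and Col28a1 was among the genes that lost their calls (edgeR adjusted p = 0.0982).

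The direct comparison separated the compounds for Col8a2 in macrophages (log2 fold change 3.07 ± 0.38, edgeR adjusted p = 4.9e-08, 95% interval 2.29 to 3.86) and in myocytes (log2 fold change 2.42 ± 0.32, edgeR adjusted p = 1.63e-07, interval 1.76 to 3.07). In adipocytes the difference was 0.65 ± 0.28 with an interval of 0.06 to 1.23 and an edgeR adjusted p of 0.0516, short of a call. In hepatocytes 9 counts under butyrate against 0 under βOHB made it at least 3.14-fold higher by library totals (edgeR adjusted p = 0.0146). With TMM scaling that bound would be slightly lower. Col20a1, which passed the filter only through butyrate libraries, was higher with butyrate in all 4 cell types, by 1.05 ± 0.29, 2.21 ± 0.28, 0.64 ± 0.28 and 1.37 ± 0.38 log2 units. The largest adjusted p of these was 0.0471 in myocytes (edgeR), where limma-voom gave 0.0774, DESeq2 0.0682, no filter 0.213, the replicate block 0.0652 and leaving out βOHB replicate 1 or 2 or butyrate replicate 1 or 3 gave 0.0765 to 0.178. In hepatocytes the adjusted p was 0.0504 without βOHB replicate 3. Col12a1 was lower with butyrate in adipocytes (-0.63 ± 0.14), macrophages (-0.61 ± 0.14) and myocytes (-0.36 ± 0.14) and higher in hepatocytes (0.89 ± 0.15), with an adjusted p of 0.0542 to 0.336 in myocytes under DESeq2, RLE size factors or library totals.

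Adipocytes had Col15a1 (log2 fold change -0.89 ± 0.15, edgeR adjusted p = 5.41e-06), Col27a1 (log2 fold change -1.02 ± 0.13, edgeR adjusted p = 4.85e-08) and Col13a1 (log2 fold change -3.10 ± 0.56, edgeR adjusted p = 2.04e-05) lower with butyrate. Myocytes had Col26a1 (log2 fold change -1.35 ± 0.18, edgeR adjusted p = 1.12e-06) and Col13a1 (log2 fold change -1.15 ± 0.20, edgeR adjusted p = 7.23e-06) lower. Col7a1 in macrophages was higher with butyrate than with βOHB (log2 fold change 0.96 ± 0.24, edgeR adjusted p = 0.000888), with 2.56, 3.12 and 4.61 CPM, while neither compound was called against control.

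For the fibril genes the compounds differed in hepatocytes. There Col1a1 was lower with butyrate by -0.88 ± 0.26 log2 units (edgeR adjusted p = 0.00407), Col1a2 by -0.69 ± 0.26 (0.0244) and Col3a1 by -1.17 ± 0.31 (0.00134), none of which limma-voom called (adjusted p = 0.177, 0.274 and 0.104). Without βOHB replicate 2 or butyrate replicate 3 the adjusted p of Col1a2 was 0.0625 or 0.0979. In macrophages Col1a1 differed by -0.35 ± 0.15 (edgeR adjusted p = 0.0446), a call lost without βOHB replicate 2 (0.0979), βOHB replicate 3 (0.118) or butyrate replicate 1 (0.361) and with RLE size factors (0.0532) or library totals (0.517). No difference was called in adipocytes (-0.21, interval -0.52 to 0.10) or myocytes (0.07, interval -0.24 to 0.38). The comparison of Col14a1 in myocytes, the gene that βOHB lowered, gave -0.18 with an interval of -1.20 to 0.83 (edgeR adjusted p = 0.76), which leaves room for a difference of either sign.

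Whether the butyrate effect depended on the cell type was tested directly. The effect in myocytes differed from that in adipocytes, which share no library, for 10 of 35 collagens, 7 with the higher and 3 with the lower value in myocytes (36.8% of all genes, 18.2% higher and 18.6% lower). Col27a1 differed most clearly by 1.48 ± 0.18 log2 units (edgeR adjusted p = 1.83e-07). Col13a1 differed by 2.24 ± 0.61 and Col15a1, whose log2 fold change in myocytes was -0.02 ± 0.17, by 0.84 ± 0.22, and Col14a1 by -1.53 ± 0.43. For the βOHB effect the same contrast called 0 collagens by edgeR (1.56% of all genes) and 1 by DESeq2, Col14a1 (-1.58, adjusted p = 0.0443). Over all 4 cell types together, the butyrate effect was unequal for 17 collagens (74.5% of all genes), a count of 11 without control replicate 2 or control replicate 3 of myocytes. They were Col15a1, Col18a1, Col4a1, Col11a2, Col1a1, Col27a1, Col3a1, Col5a1, Col5a3, Col12a1, Col14a1, Col20a1, Col8a2, Col13a1, Col25a1, Col6a3 and Col28a1. Col5a2, the member lowered in all 4 cell types, was not among them.

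The genes that make, cut, bind and degrade collagen were read from lists alongside, for which the shares over all genes are those given above for butyrate (30.7% to 33.1% raised and 30.3% to 33.4% lowered). With library totals, a scaling tried for the lists after the data were seen, the folding list turned to 8 raised and 2 lowered in macrophages, basement membrane partners there to 4 and 0, and the cleavage list in myocytes to 4 and 3. The signalling list turned to 3 and 4 in macrophages. In myocytes basement membrane partners turned to 6 and 0, receptors to 3 and 2, the signalling list to 6 and 3 and the breakdown list to 2 and 2. Without butyrate replicate 3, myocytes had 4 raised and 8 lowered genes for folding, 2 and 6 for cleavage, 1 and 8 for breakdown, 2 and 5 receptors, 4 and 2 basement membrane partners, 2 and 3 fibril partners and 4 and 5 in signalling. Without butyrate replicate 2 these were 7 and 2, 4 and 4, 4 and 2, 3 and 3, 5 and 1, 4 and 0, and 5 and 5. Of 18 tested genes for folding and modification in the endoplasmic reticulum, butyrate raised 6 and lowered 4 in adipocytes, 5 and 7 in hepatocytes, 5 and 6 in macrophages and 7 and 3 in myocytes. Plod2, which hydroxylates lysines for cross-links, rose in all 4 cell types, listed here as adipocytes, macrophages, myocytes, hepatocytes, by 0.51 ± 0.08, 0.64 ± 0.08, 0.60 ± 0.08 and 1.67 ± 0.12 log2 units. P4ha1, a subunit of prolyl hydroxylase, rose by 0.63 ± 0.07 in adipocytes and 1.15 ± 0.08 in hepatocytes, and P4ha2 by 0.64 ± 0.08 in macrophages and 0.74 ± 0.08 in myocytes. The collagen chaperone Serpinh1 fell, with log2 fold changes of -0.49 ± 0.11 in macrophages and -1.30 ± 0.18 in hepatocytes. P4ha3 fell in adipocytes (-0.85 ± 0.15) and macrophages (-0.84 ± 0.17), Mia2, which helps export large cargo, in adipocytes (-0.45 ± 0.06) and myocytes (-0.47 ± 0.06), Colgalt1 in hepatocytes (-1.05 ± 0.07) and P3h4 in myocytes (-0.34 ± 0.08).

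Of 11 tested genes for propeptide cleavage and cross-linking, 1 was raised and 6 lowered in adipocytes, 0 and 5 in hepatocytes, 0 and 7 in macrophages and 2 and 4 in myocytes. Loxl1, a cross-linking oxidase, fell, with log2 fold changes of -0.49 ± 0.08 in adipocytes and -0.62 ± 0.09 in macrophages. Adamts14, which removes the amino-terminal propeptide, fell, with log2 fold changes of -0.94 ± 0.16 in adipocytes and -0.97 ± 0.12 in myocytes, and Tll1, which removes the other end, by -1.47 ± 0.17 in macrophages and -0.99 ± 0.17 in myocytes. In hepatocytes Lox (-1.32 ± 0.21) and Loxl2 (-0.74 ± 0.12) fell. Loxl2 instead rose in adipocytes (0.45 ± 0.12) and myocytes (0.46 ± 0.12), as did Loxl4 in myocytes (0.77 ± 0.18), at 0.27 and 0.31 there without butyrate replicate 3.

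Of 12 genes for breakdown and its inhibitors, 1 was raised in each cell type, with 2, 5, 3 and 4 lowered in adipocytes, macrophages, myocytes and hepatocytes. Mmp14, a membrane-bound collagenase, fell in all 4, with log2 fold changes of -1.57 ± 0.13, -1.62 ± 0.14, -0.94 ± 0.13 and -2.57 ± 0.15 in the order used for Plod2. The raised gene was the inhibitor Timp3 in macrophages (0.93 ± 0.14), myocytes (0.78 ± 0.14) and hepatocytes (1.75 ± 0.16) and Timp2 in adipocytes (0.36 ± 0.13). The collagen-cutting cathepsin Ctsk fell in adipocytes (-0.44 ± 0.17) and macrophages (-1.35 ± 0.21), Timp1 in hepatocytes (-0.57 ± 0.18), and Mmp8 in myocytes from 0.55 to 0.0824 CPM (-2.63 ± 0.59). Among 8 receptors, 1 was raised and 5 lowered in adipocytes, 1 and 3 in hepatocytes, 3 and 4 in macrophages and 2 and 4 in myocytes. Ddr1, a receptor kinase for collagen, fell in all 4, with log2 fold changes of -0.40 ± 0.05, -0.85 ± 0.06, -1.19 ± 0.05 and -0.95 ± 0.06 in the order used for Plod2. Lair1, an inhibitory receptor of leukocytes, fell in adipocytes (-1.49 ± 0.25), macrophages (-1.91 ± 0.14) and myocytes (-3.49 ± 0.40). All 8 macrophage markers fell in the same myocytes, with sums of 134.5 to 359.9 CPM under control and 18.5 to 88.6 CPM under butyrate, and their part was not tested. The integrin subunit Itga2 rose in adipocytes (0.59 ± 0.24), macrophages (1.85 ± 0.46) and myocytes (0.95 ± 0.22) and fell in hepatocytes (-2.05 ± 0.21), Itga1 rose in macrophages (0.66 ± 0.12) and hepatocytes (0.55 ± 0.11), and Itga11 rose in myocytes (0.98 ± 0.25). Without butyrate replicate 3 Itga2 was at 0.42 in myocytes.

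**Figure D5:**
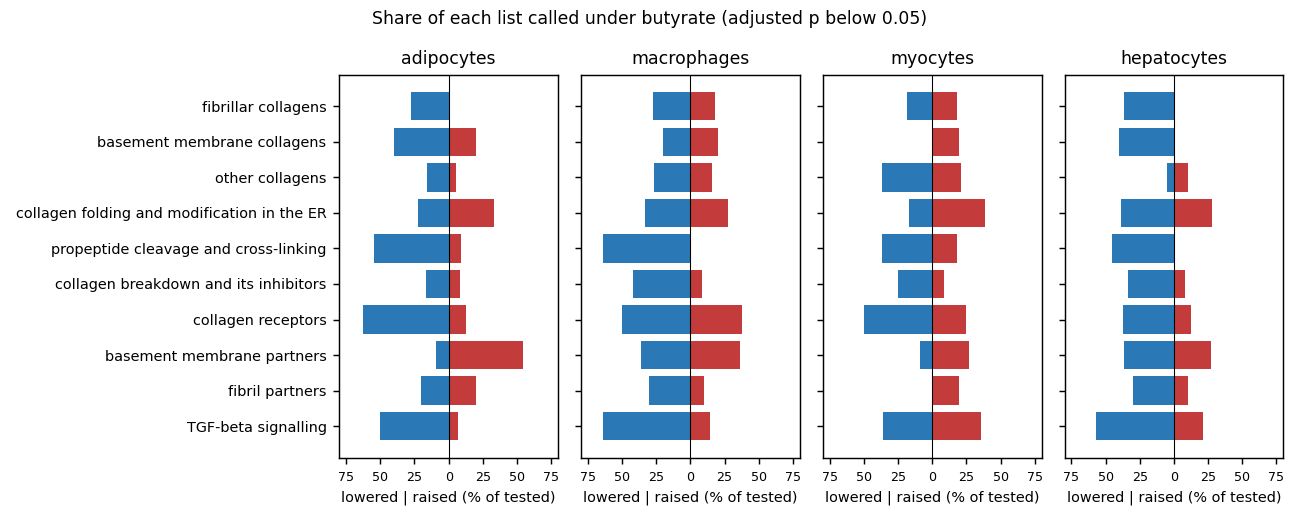
Percent of the tested genes of each list that butyrate raised (red, to the right) or lowered (blue, to the left) at an adjusted p below 0.05 in edgeR, for the 3 collagen classes and 7 lists of related genes in the 4 cell types. Bars start at 0; the cleavage and cross-linking list extends to the left in every panel (with library totals it held 4 raised and 3 lowered in myocytes), and basement membrane partners extend to the right in adipocytes.

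Of 11 basement membrane partners, 6 were raised and 1 lowered in adipocytes, 3 and 4 in hepatocytes, 4 and 4 in macrophages and 3 and 1 in myocytes. The laminin chain Lama5 rose in adipocytes (1.90 ± 0.14), myocytes (0.96 ± 0.12) and hepatocytes (2.20 ± 0.16). Agrn, which encodes the proteoglycan agrin, rose in adipocytes (0.95 ± 0.10) and macrophages (1.76 ± 0.11) and fell in hepatocytes (-0.32 ± 0.10). The linker gene Nid2 rose in macrophages (1.51 ± 0.14) and hepatocytes (1.22 ± 0.14), and Lamc1 rose in myocytes (0.50 ± 0.07). Lowered partners included Lamb1 in adipocytes (-0.63 ± 0.11), Lamb2 (-0.38 ± 0.07) and Hspg2 (-0.48 ± 0.12) in macrophages, Lama2 in myocytes (-0.30 ± 0.13, edgeR adjusted p = 0.223 without butyrate replicate 3) and Lama4 in hepatocytes (-1.67 ± 0.27).

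Fibril partners gave 2 raised and 2 lowered of 10 in adipocytes, 1 and 3 in hepatocytes, 1 and 3 in macrophages and 2 and 0 in myocytes. Thbs1 fell in adipocytes (-0.83 ± 0.14) and macrophages (-0.82 ± 0.14) and rose in hepatocytes (1.25 ± 0.15), while Thbs2 rose in myocytes (1.25 ± 0.16). Sparc, which binds fibrillar collagen, fell in macrophages (-0.33 ± 0.12) and hepatocytes (-1.13 ± 0.14), Bgn fell in hepatocytes (-0.55 ± 0.21) and Fmod in adipocytes (-0.38 ± 0.13). Postn (0.22 ± 0.10) and Tnxb (0.41 ± 0.17) rose in adipocytes, and Tnxb in myocytes (1.67 ± 0.38). Without butyrate replicate 3 of myocytes, the library rich in fibroblast markers, Thbs2 was at 0.87 and Tnxb at 0.80 there, both still called, and the part of those cells was not tested. The raised gene in macrophages was Lum, at 0.0687 CPM against 0. TGF-beta is a major inducer of fibrillar collagen. Of 14 genes of its signalling, 1 was raised and 7 lowered in adipocytes, 3 and 8 in hepatocytes, 2 and 9 in macrophages and 5 and 5 in myocytes. Smad2, which carries the signal to the nucleus, fell in adipocytes (-0.48 ± 0.06), macrophages (-0.63 ± 0.05) and hepatocytes (-0.76 ± 0.06), and the receptor Tgfbr2 in adipocytes (-0.87 ± 0.07) and myocytes (-0.62 ± 0.07). Tgfb3, a ligand, fell in macrophages (-1.02 ± 0.08) and myocytes (-1.17 ± 0.07). Smad3 rose in macrophages (1.09 ± 0.09) and fell in hepatocytes (-0.88 ± 0.08). The corepressor Ski rose in adipocytes (0.48 ± 0.05) and myocytes (0.59 ± 0.05), and the coreceptor Tgfbr3 in macrophages (0.90 ± 0.21), myocytes (1.52 ± 0.23) and hepatocytes (1.27 ± 0.24). In myocytes Tgfbr3 was at 0.95 without butyrate replicate 3.

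Under βOHB none of these lists held a called gene in adipocytes, macrophages or hepatocytes by edgeR, where 7, 0 and 4 of the 84 listed genes had an unadjusted p under 0.05. In myocytes 3 of 84 were called (2.91% of all genes). They were Mmp13, a collagenase, at -1.43 ± 0.36 log2 units, Lair1 at -1.69 ± 0.31 and Lum, a fibril proteoglycan, at 1.24 ± 0.35, with edgeR adjusted p of 0.0218, 0.000944 and 0.0465. All 8 macrophage markers fell in the same βOHB-treated myocytes, to sums of 49.2 to 131.3 CPM, and their part was not tested.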

How the data were processed

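RNA for 36 libraries was sequenced in pairs on a BGISEQ-500 after random-primed reverse transcription. The authors quantified transcripts with Salmon 1.2.1 and summed them to genes with tximport, and the deposited table holds estimated counts for 54347 genes. Scaling by transcript length and library size, which the methods mention, was not visible in the values, 55.6% of which were whole among those above 0. Here the estimated counts were rounded, genes above 1 CPM by library totals in at least 6 libraries were kept (15340), and edgeR 4.0.16 in R 4.3.3 fitted 1 quasi-likelihood model of 12 group means with TMM scaling. The CPM values printed use TMM-scaled totals. Standard errors are the log2 fold change divided by the square root of F. P-values were adjusted by Benjamini-Hochberg over all tested genes, with calls below 0.05, and are from edgeR unless another tool is named. Lengths came from GENCODE M21, an older release than the authors used, which held 54094 of the identifiers. No label says that the 3 libraries of a group came from separate animals, so p-values measure the spread between these libraries, which may be technical.

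The members and lists were chosen with earlier results of these data known. Values in every library are given for Col1a1, Col1a2, Col3a1, Col4a1, Col4a2 and for up to 5 called collagens of largest fold per class and treatment comparison. For βOHB they are given for every called collagen or, with at most 2 called, for the 5 of smallest p. For each list of related genes the 2 called genes of smallest p in each direction are named, except 1 that is not reported here. A group at 0 was set to a floor of 3 counts over the group, which covers counting error only. Bounds from this floor were scaled by library totals and not by TMM. The scripts were tested on simulated data, and no pair of libraries in a group agreed within sampling noise. Alternatives were limma-voom (limma 3.58.1), DESeq2 1.42.0, RLE size factors, library totals, no filter, the libraries of 1 cell type alone, a replicate block and leaving out each library.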

Additional observations from a re-analysis of the deposited data

Results flagged for a closer look

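The response to butyrate differed between myocytes and adipocytes for 10 collagens in edgeR's interaction test, and these differences (myocytes minus adipocytes, on the log2 scale) are given here as values. Higher in myocytes were Col13a1 by 2.24 (SE 0.61, adjusted p = 0.0043), Col27a1 by 1.48 (SE 0.18, adjusted p = 1.83e-07), Col15a1 by 0.84 (SE 0.22, adjusted p = 0.0036), Col6a3 by 0.62 (SE 0.23, adjusted p = 0.0379), Col5a1 by 0.55 (SE 0.17, adjusted p = 0.0105), Col5a3 by 0.51 (SE 0.16, adjusted p = 0.012) and Col4a1 by 0.48 (SE 0.19, adjusted p = 0.0479). Lower in myocytes were Col14a1 at -1.53 (SE 0.43, adjusted p = 0.00531), Col28a1 at -0.64 (SE 0.22, adjusted p = 0.0244) and Col18a1 at -0.42 (SE 0.13, adjusted p = 0.0116).

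The calls of 3 of these genes were lost without myocyte butyrate replicate 3, which held 1566 CPM of fibroblast markers where the other 8 myocyte libraries held 654.1 to 840.3 CPM. The part of those cells in the differences was not tested. Without that library Col4a1 was at 0.20 (adjusted p = 0.321), Col6a3 at 0.22 (adjusted p = 0.319) and Col5a3 at 0.37 (adjusted p = 0.0554). Leaving out other libraries also took the adjusted p of Col4a1 to between 0.0623 and 0.104, that of Col6a3 to between 0.0509 and 0.086, and that of Col28a1 to between 0.0519 and 0.111. The replicate block gave these genes 0.0793, 0.0518 and 0.055, limma-voom gave Col4a1 0.0598 and Col6a3 0.0566, and DESeq2 gave Col6a3 0.0592 (adjusted p).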

How the results depend on the processing

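For butyrate against control the number of called collagens stayed within 1.5 times of the reported one under every alternative run, at 9 to 12 in adipocytes, 6 to 12 in hepatocytes, 12 to 22 in macrophages and 11 to 19 in myocytes, and the values of the collagens named in the text kept their sign wherever they were called. Leaving out 1 library gave 7 to 9, 7 to 10, 11 to 18 and 12 to 16 called collagens in that order. Without the filter 10 of 12 calls in adipocytes, 9 of 12 in hepatocytes, 15 of 22 in macrophages and 15 of 18 in myocytes were shared with the reported ones. The 1 call of βOHB in myocytes became 4 without the filter (Col18a1, Col2a1, Col14a1 and Col10a1) and 0 with the 9 myocyte libraries alone, and lay between 0 and 1 when a library was left out. Butyrate against βOHB rose from 10 to 17 called collagens in adipocytes without the filter, and from 11 to 17 in myocytes both without the filter and with library totals. Leaving out a library gave 8 to 11 there in adipocytes, 9 to 13 in myocytes, 9 to 12 in hepatocytes and 12 to 16 in macrophages. The difference between myocytes and adipocytes was called for 7 to 13 collagens under butyrate when a library was left out. Under βOHB it went from 0 to 1 with DESeq2, library totals or the replicate block (Col14a1 in each), to 2 without the filter (Col14a1 and Col18a1), and lay between 0 and 1 when a library was left out, with 1 call without adipocyte control replicate 1. The test over 4 cell types called 17 collagens and 11 to 17 without a library, with 11 each without myocyte control replicate 2 and without myocyte control replicate 3. DESeq2 was not run for that test. The cause of these changes was not tested. The replicate numbers were not treated as pairs in the main fit. Deviations of same-numbered libraries correlated above 0.1 in 2 of 9 pairs in adipocytes (highest 0.225), 2 of 9 in myocytes (highest 0.273) and 0 of 9 in each of the other 2 cell types. Low correlations cannot show that same-numbered libraries were unpaired, so a replicate block was also fitted. With the replicate block the counts for butyrate were 10, 9, 17 and 15 in the order above, the difference between myocytes and adipocytes was called for 7 collagens and the test over 4 cell types for 13. Levels per kb moved by more than the spread between replicates for 72 of 140 values when merged exon length was used. Levels as log2 CPM, which are not printed here, did so for 31 of 140 values with a prior count of 0.5 in place of 2.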
